A study of Mus musculus with 4 samples.

Results

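The 10 genes described here encode the core and accessory subunits of Polycomb repressive complex 2 (PRC2): *Ezh1*, *Ezh2*, *Eed*, *Suz12*, *Rbbp4*, *Rbbp7*, *Phf1*, *Mtf2*, *Phf19* and *Jarid2*. They were taken from a list of subunits by gene symbol, and all 10 of the 10 symbols were present among the 12067 genes of the deposited count table. The libraries were Quant-seq, a 3′ mRNA sequencing assay that primes from the poly-A tail, of KL cells (Lin- cKIT+ Sca-1- myeloid progenitors) that were sorted by CD45.2 as donor-derived from the marrow of transplanted mice. Donor marrow of BcorΔE9-10 origin carried scl-Cre-ERT and a floxed *Bcor* on the X chromosome (scl-Cre-ERT +; Bcorfl/y), from which exons 9 and 10 are deleted, and gave 2 libraries. Donor marrow of BcorWT origin carried the same floxed allele without the Cre (Bcorfl/y), and gave the other 2 libraries. Both groups of male donors had received tamoxifen, and marrow of both went into sub-lethally irradiated female *Ptprca* recipients, which express CD45.1 and keep some blood cells of their own. The study examined such recipients 20 weeks after transplantation, and the labels give no time of collection for the libraries. The Cre is driven by a stem cell element of *Tal1*, and the recombined allele still gives a low level of truncated protein. The paper describes protein expression from this allele as severely reduced. The labels do not say whether each library is 1 recipient or a pool, and p-values measure only the spread between these libraries.

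PRC2 places methyl groups on lysine 27 of histone H3, the mark of Polycomb silencing. *Ezh1* and *Ezh2* encode the alternative methyltransferases, *Eed* the subunit that reads the mark and stimulates the enzyme, *Suz12* the scaffold, and *Rbbp4* and *Rbbp7* related histone-binding proteins. *Phf1*, *Mtf2* and *Phf19* encode Polycomb-like proteins, of which the complex holds one at a time in its CpG island-directed form, while *Jarid2* belongs to a separate form with *Aebp2*, which can bind the ubiquitinated histone H2A made by PRC1. Bcor is a subunit of PRC1.1, a variant PRC1, and the truncated protein lacks the part that joins that complex. In blood, *Ezh2* is prominent in dividing progenitors and *Ezh1* in resting stem cells, and genes of the PRC2 core are mutated in myeloid malignancies. The comparison addresses whether the transcripts of PRC2 differ in progenitors with truncated Bcor.

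Windows of the promoters, from 250 bases before to 50 bases after the annotated start (RefSeq, GRCm38.p6), are shown for *Suz12* and *Ezh2*, core genes that hold a match to the letters of an E2F site, for *Rbbp4*, whose estimate varied least when single libraries were omitted among the members with groups that did not overlap and were higher in BcorΔE9-10, and for *Phf1*, whose estimate was farthest from 0. All are CpG-rich, with between 24 and 41 CpG dinucleotides, where the median over all promoter windows was 7.0. Capitals mark matches on either strand to any of 4 E2F motifs, TTTCCCGC, TTTGGCGC, TTTCGCGC and TTTGCCGC. The letters GGGCGG, searched separately, can share bases with such a match. E2F factors are the transcription factors of S-phase entry. The windows are *Suz12* at chr11:79992856-79993155 (plus strand), *Ezh2* at chr6:47594981-47595280 (minus strand), *Rbbp4* at chr4:129335321-129335620 (minus strand) and *Phf1* at chr17:26932877-26933176 (plus strand), each printed 5′ to 3′ on the strand of its gene.
Suz12: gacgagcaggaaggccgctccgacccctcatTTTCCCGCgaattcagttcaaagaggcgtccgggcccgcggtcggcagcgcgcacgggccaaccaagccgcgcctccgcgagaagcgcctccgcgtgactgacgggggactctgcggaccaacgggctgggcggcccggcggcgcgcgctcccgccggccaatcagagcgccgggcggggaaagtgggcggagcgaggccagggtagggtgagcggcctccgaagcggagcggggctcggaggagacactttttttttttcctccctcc
Ezh2: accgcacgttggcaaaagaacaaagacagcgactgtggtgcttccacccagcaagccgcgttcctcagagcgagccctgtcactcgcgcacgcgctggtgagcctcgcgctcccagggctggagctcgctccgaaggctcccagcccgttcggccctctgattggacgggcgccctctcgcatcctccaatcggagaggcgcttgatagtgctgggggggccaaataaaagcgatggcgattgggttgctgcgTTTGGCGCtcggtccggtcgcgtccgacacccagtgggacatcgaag
Rbbp4: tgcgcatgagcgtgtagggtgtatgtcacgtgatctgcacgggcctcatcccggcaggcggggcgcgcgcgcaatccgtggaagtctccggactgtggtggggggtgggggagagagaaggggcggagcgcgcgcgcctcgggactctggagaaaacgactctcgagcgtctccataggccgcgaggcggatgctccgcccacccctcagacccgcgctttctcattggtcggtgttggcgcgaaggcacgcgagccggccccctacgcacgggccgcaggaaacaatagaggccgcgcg
Phf1: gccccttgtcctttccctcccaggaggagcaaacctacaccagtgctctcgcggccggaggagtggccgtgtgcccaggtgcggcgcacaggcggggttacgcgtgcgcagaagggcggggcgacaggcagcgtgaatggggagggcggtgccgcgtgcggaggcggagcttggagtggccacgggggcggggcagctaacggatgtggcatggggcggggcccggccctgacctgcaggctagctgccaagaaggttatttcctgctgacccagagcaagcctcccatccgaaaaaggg

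A match to these E2F letters was found in 3 of the 10 members, *Ezh2*, *Suz12* and *Phf19*, and in 5.02% of the 8368 table genes with a promoter window (2.63% of all 26742 genes). With the start counted as position 0, the match began at position -219 in *Suz12* and at position 3 in *Ezh2*. Of 5 other motifs searched on both strands, CCAAT was found in 7 members (42.7% of table genes), GGGCGG in 7 (69.5%), AAGATGGC in 1 (5.92%), and CCGGAAG and GCGCATGC in 0 (22.3 and 6.50%). These matches describe the letters of the windows only, and no binding was measured.

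The libraries held 5058140 and 6253100.5 counts for BcorΔE9-10 and 3825289.5 and 4992205 counts for BcorWT, in the order of the replicates. A level of 3 counts corresponded to between 0.489 and 0.876 CPM after TMM scaling, and all members were above it in every library. All 8 genes listed as markers of myeloid progenitors were in the table, and *Ly6a*, which encodes Sca-1, had between 0 and 20 counts. Genes of late neutrophils, many of which a lineage-negative gate should remove, were abundant, with a summed level of 62948 and 154125 CPM in BcorΔE9-10 and 93775.5 and 141232 CPM in BcorWT over all 6 listed genes. BcorWT replicate 2 stood apart. It had 1.43% of its counts in the rRNA-like transcript *Gm42418*, against 16.3 and 14.3% in BcorΔE9-10 and 27.9% in BcorWT replicate 1. The BcorWT replicates were less alike across genes (Pearson r of log2 CPM 0.893) than the BcorΔE9-10 replicates (0.947), which does not show which of them departs. Estimates without BcorWT replicate 2 rest on BcorWT replicate 1 as the only control, the library with the fewest counts and the highest *Gm42418* share. With *Gm42418* left out of the fit, the median log2 fold change over the members (BcorΔE9-10 minus BcorWT) was 0.176 in place of 0.185. *Suz12* came to 0.70 and *Phf1* to -1.53. That fit changes the scaling only, and whether the low share and the differences below have a common source was not tested. Estimates of the members are given with and without BcorWT replicate 2, and the values of the other gene lists with all 4 libraries only.

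None of the 10 members passed the test between genotypes. An adjusted p under 0.05 in edgeR's quasi-likelihood test was reached by 0 members and by 0.0166% of all genes, and an unadjusted p under 0.05 by 0 members and by 4.42% of all genes. limma-voom also called 0 members at either level, beside 4 of all 12067 genes after adjustment and 515 before it. DESeq2 called 0 after adjustment and 1, *Phf1*, before it, where 506 of all 12067 genes had an unadjusted p under 0.05. The log2 fold change (BcorΔE9-10 minus BcorWT) was above 0 for 7 members and below 0 for 3, with a median of 0.18 beside -0.03 over all genes. The groups did not overlap for 6 members (33.9% of all genes), 4 of them higher in BcorΔE9-10 (16.8% of all genes) and 2 lower (17.1%). Without BcorWT replicate 2 this number was 8 members, beside 8338 of 12061 genes. With BcorWT replicate 2 left out the median was -0.04, and with BcorWT replicate 1 left out it was 0.48. In these bulk libraries fewer cells of a type and less RNA per cell cannot be told apart.

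**Figure D1:**
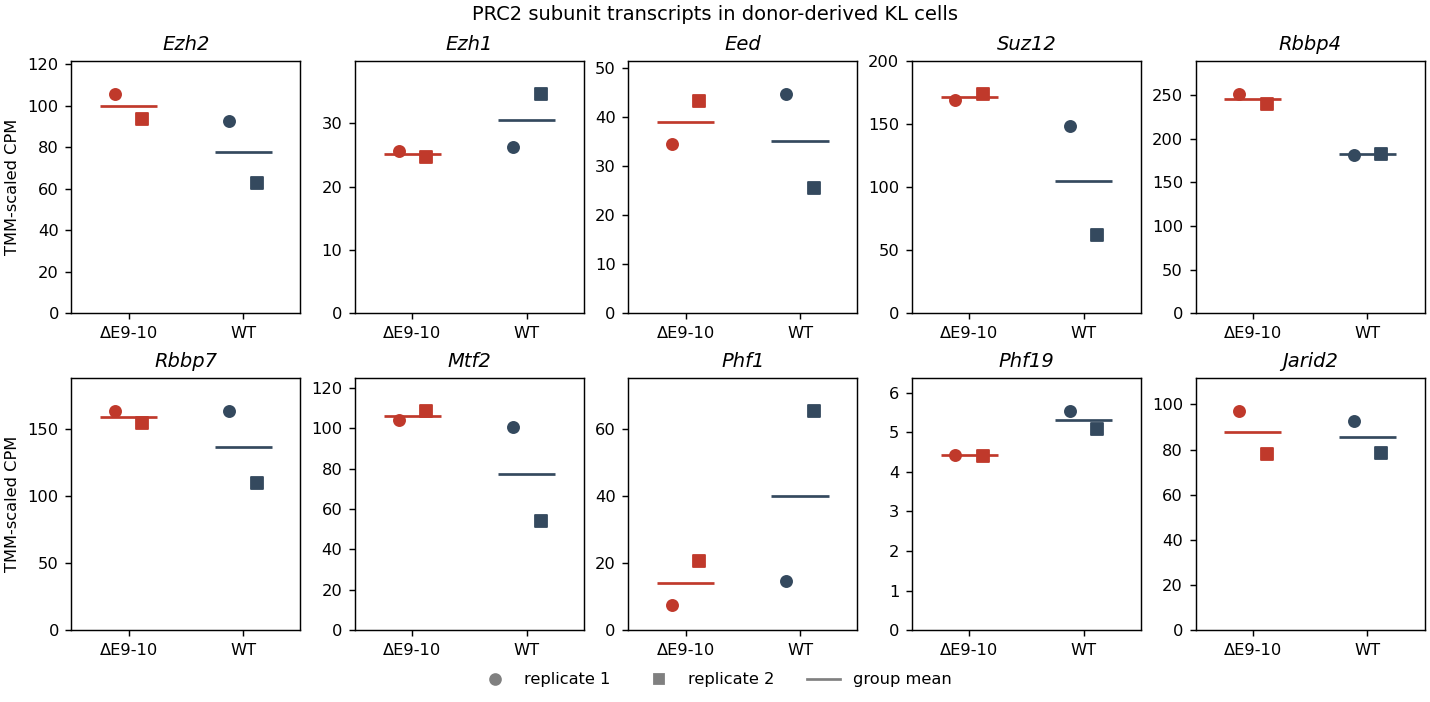
TMM-scaled CPM (vertical axis from 0) of each PRC2 subunit gene in the 4 libraries, with circles for replicate 1, squares for replicate 2 and lines for group means. In *Suz12*, *Mtf2*, *Ezh2*, *Eed* and *Rbbp7* BcorWT replicate 2 is the lowest library, whereas *Rbbp4* separates the genotypes with replicates that lie close together.

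The estimates of the catalytic subunits lay in opposite directions, and neither passed the test. *Ezh2* (chromosome 6, 47530139 to 47595341, GRCm38) was at 106 and 93.9 CPM in BcorΔE9-10 and at 92.9 and 62.9 CPM in BcorWT. The groups did not overlap, but BcorΔE9-10 replicate 2 and BcorWT replicate 1 were nearly at the same level and BcorWT replicate 2 was the lowest. The log2 fold change of *Ezh2* was 0.36 (standard error 0.335, 95% interval -0.42 to 1.14, edgeR adjusted p = 0.945). It was 0.10 without BcorWT replicate 2 and 0.66 without BcorWT replicate 1. *Ezh1* (chromosome 11, 101191115 to 101226463) was at 25.7 and 24.6 CPM in BcorΔE9-10 and at 26.3 and 34.6 CPM in BcorWT. The other 3 libraries were close to each other, and BcorWT replicate 2 was the highest. For *Ezh1* the log2 fold change was -0.28 (standard error 0.33, interval -1.04 to 0.48, edgeR adjusted p = 0.952). It was -0.06 without BcorWT replicate 2 and -0.47 without BcorWT replicate 1.

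The ratio of *Ezh2* to *Ezh1* counts within a library needs no scaling between libraries. It was 4.10 and 3.81 in BcorΔE9-10 and 3.52 and 1.81 in BcorWT. Both BcorΔE9-10 libraries had the higher ratios, and BcorWT replicate 2 had the lowest. On the log2 scale the mean was 1.98 ± 0.08 (SD, n = 2) in BcorΔE9-10 and 1.34 ± 0.68 (SD, n = 2) in BcorWT, a difference of 0.65 that was smaller than the spread within BcorWT. The two-sided exact permutation test gave p = 0.333, which is the smallest that 2 against 2 libraries allow. Without BcorWT replicate 2 the difference was 0.17, and without BcorWT replicate 1 it was 1.12. The ratio of *Rbbp4* to *Rbbp7*, which encode the related histone-binding subunits, was 1.54 and 1.56 in BcorΔE9-10 and 1.11 and 1.66 in BcorWT, so the groups overlapped (log2 difference 0.19). *Mtf2* to *Phf1* spanned the widest range of these ratios, at 13.6 and 5.24 in BcorΔE9-10 and 6.84 and 0.822 in BcorWT. These last comparisons were added after the values were seen.

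**Figure D2:**
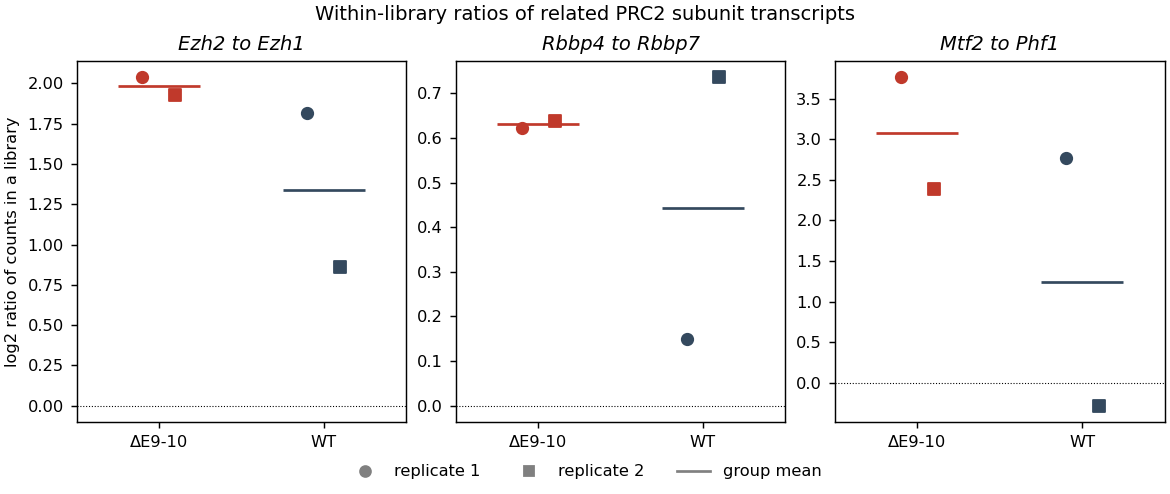
Log2 ratio of the counts of related PRC2 subunit genes within each library (vertical axis), with circles for replicate 1, squares for replicate 2 and lines for group means. BcorWT replicate 2 lies farthest from the others for *Ezh2* to *Ezh1*, with a ratio of 1.81, and for *Mtf2* to *Phf1*, with a ratio of 0.822.

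Among the noncatalytic core genes, *Suz12* and *Rbbp4* had the highest estimates. *Suz12* (chromosome 11, 79993106 to 80034123) had 914 and 1067 counts in BcorΔE9-10 and 509 and 330 counts in BcorWT, or 169 and 174 CPM against 149 and 62.1 CPM. The BcorΔE9-10 replicates agreed closely, BcorWT replicate 1 was slightly below them and BcorWT replicate 2 was far below. For *Suz12* the log2 fold change was 0.70 (standard error 0.44, interval -0.31 to 1.72, edgeR adjusted p = 0.945). It was 0.21 without BcorWT replicate 2 and 1.46 without BcorWT replicate 1, and in the latter fit, in which the lone BcorWT library is assumed to vary like the others, its edgeR adjusted p was 0.0287. In that same fit 596 of 12063 genes had an adjusted p under 0.05.

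*Rbbp4* (chromosome 4, 129307100 to 129335370) was at 251 and 240 CPM in BcorΔE9-10 and at 181 and 183 CPM in BcorWT. Its groups did not overlap, and the gap between them was wider than the distance between the replicates of either genotype. The share of all genes with so wide a gap was not counted, and the groups did not overlap for 33.9% of all genes. The log2 fold change of *Rbbp4* was 0.43 (standard error 0.31, interval -0.28 to 1.14, edgeR adjusted p = 0.945), and it stayed between 0.40 and 0.47 with single libraries omitted, at 0.44 without BcorWT replicate 2. An lncRNA gene on the opposite strand, *Gm26722*, has its first exon (chromosome 4, 129309081 to 129309876) inside the last exon of *Rbbp4* (129307100 to 129310157). *Gm26722*, chosen after its values were seen, had 1215 and 1352 counts in BcorΔE9-10 and 522 and 932 in BcorWT, between 84.1 and 96.0% of the *Rbbp4* counts of the same library. Whether the counting used the strand is not given in the sources used here, so reads in the shared exon bases of *Rbbp4* and *Gm26722* cannot be told apart. The shared stretch lies outside the last 500 bases of the longest coding *Rbbp4* transcript. *Sync*, also on the opposite strand, does reach into those bases and had between 15 and 23 counts.

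*Eed* (chromosome 7, 89954654 to 89980983) was at 34.6 and 43.2 CPM in BcorΔE9-10 and at 44.7 and 25.6 CPM in BcorWT. The BcorWT libraries bracketed both BcorΔE9-10 libraries. Its log2 fold change was 0.15 (standard error 0.37) and changed sign, to -0.20, without BcorWT replicate 2. *Rbbp7* (chromosome X, 162760402 to 162779092) was at 163 and 154 CPM in BcorΔE9-10 and at 164 and 110 CPM in BcorWT. The replicate 1 libraries of both genotypes were equal to within 1 CPM, and BcorWT replicate 2 was low. The *Rbbp7* estimate on the log2 scale, 0.22 with a standard error of 0.34, turned to -0.044 without that library. The 95% intervals ran from -0.71 to 1.02 for *Eed* and from -0.56 to 0.99 for *Rbbp7*, so that levels up to 2.02-fold and 1.99-fold higher in BcorΔE9-10 lay within them.

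The estimates of the Polycomb-like subunits lay in both directions, and none passed the test. *Phf1* (chromosome 17, 26933052 to 26937908) had 41 and 127 counts in BcorΔE9-10 and 50 and 348 counts in BcorWT, or 7.58 and 20.7 CPM against 14.6 and 65.5 CPM. Both genotypes had a low replicate 1 and a higher replicate 2, and the groups overlapped. Its log2 fold change was the largest of the members at -1.51 (standard error 0.71, interval -3.16 to 0.14, edgeR adjusted p = 0.945). It came to -0.04 without BcorWT replicate 2 and to -2.21 without BcorWT replicate 1 (edgeR adjusted p = 0.0320), and with the replicate number as a block it was -1.33 (edgeR adjusted p = 0.794), past the unadjusted threshold of 0.05. The order of the libraries was that of the secondary granule gene *Ngp*, which was at 10206 and 24341 CPM in BcorΔE9-10 and 16822 and 54004 CPM in BcorWT, an observation made after the values were seen. In the late neutrophil list *Ltf* and *Mmp8* had the same order and *Camp*, *S100a8* and *S100a9* did not, also seen afterwards. Summed over that whole list the order was different, with BcorΔE9-10 replicate 2 highest. The part of neutrophil RNA in the *Phf1* difference was not tested. *Phf1* also shares exon bases with *Cuta* on the opposite strand, which had 107 and 89 counts in BcorΔE9-10 and 61 and 441 in BcorWT and was likewise highest in BcorWT replicate 2. *Cuta* was chosen after its values were seen. Opposite-strand genes in the table share exon bases with *Suz12* (*Gm26563*), *Mtf2* (*Tmed5*) and *Rbbp7* (*Txlng*) as well. Of these only *Txlng* reaches into the last 500 bases of its partner. The partners of *Ezh2* (*Gm26625*) and *Eed* (*E230029C05Rik*) are not in the table. *Tmed5*, named after its values were seen, had 349 and 442 counts in BcorΔE9-10 and 253 and 197 in BcorWT. That was between 62.1 and 73.3% of the *Mtf2* counts of the same library.

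*Mtf2* (chromosome 5, 108065674 to 108109004) was at 104 and 109 CPM in BcorΔE9-10 and at 101 and 53.8 CPM in BcorWT. As in *Suz12*, 3 libraries were alike and BcorWT replicate 2 was low. For *Mtf2* the log2 fold change was 0.46 (standard error 0.38, interval -0.41 to 1.34, edgeR adjusted p = 0.945), and it was 0.08 without BcorWT replicate 2 and 0.98 without BcorWT replicate 1. *Phf19* (chromosome 2, 34893757 to 34914026) was the most thinly counted member, with 24 and 27 counts in BcorΔE9-10 and 19 and 27 in BcorWT. At 4.44 and 4.40 CPM against 5.55 and 5.08 CPM the groups did not overlap, but the log2 fold change of -0.26 had a standard error of 0.54, where counting error alone would give 0.29. Without BcorWT replicate 2 the *Phf19* estimate was -0.33. *Jarid2* (chromosome 13, 44729474 to 44921643), the accessory subunit of the other form of PRC2, was at 97.2 and 77.9 CPM in BcorΔE9-10 and at 92.6 and 78.3 CPM in BcorWT. Its genotype means were nearly equal and the replicates differed by more than the genotypes, with a log2 fold change of 0.04 (standard error 0.32, interval -0.70 to 0.77) that was -0.08 without BcorWT replicate 2.

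**Figure D3:**
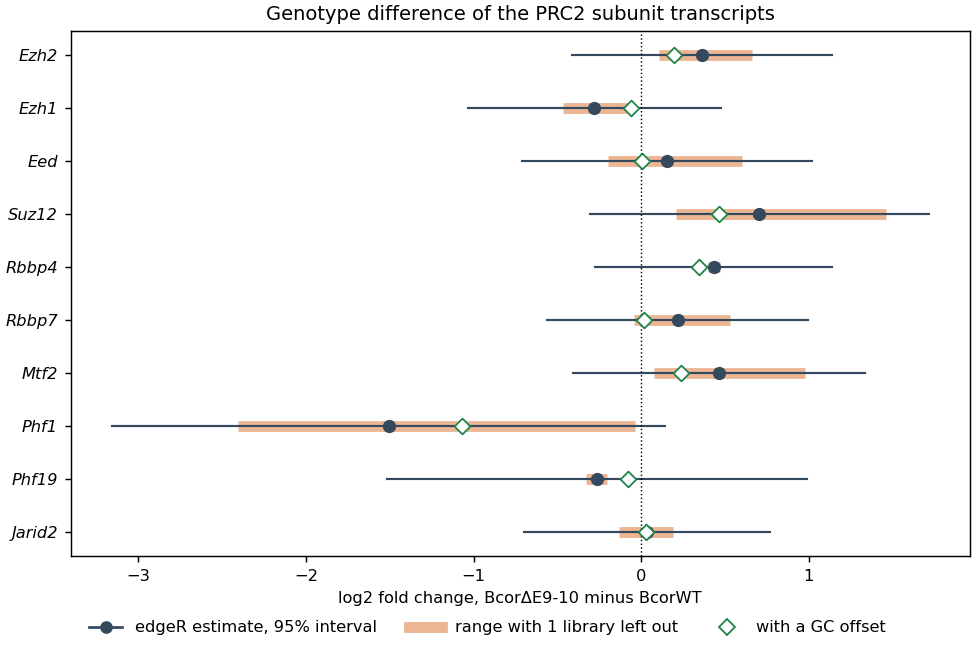
Log2 fold change (horizontal axis, BcorΔE9-10 minus BcorWT) of each PRC2 subunit gene with its 95% interval from edgeR, the range over the 4 fits with 1 library left out, and the estimate with a GC offset. All intervals include 0, and the range of *Rbbp4* (0.40 to 0.47) is narrow where those of *Suz12* and *Phf1* are wide.

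The GC content near the 3′ end was then set beside the difference between the BcorWT replicates. The last 500 bases of the longest coding transcript had 29.0% GC in *Suz12*, 32.4% in *Mtf2*, 34.6% in *Rbbp7*, 36.6% in *Ezh2* and 37.2% in *Eed*. The other members were at 41.6% in *Rbbp4*, 44.6% in *Jarid2*, 51.0% in *Phf19*, 51.6% in *Ezh1* and 54.6% in *Phf1*, and the median over all 11948 genes with a transcript was 44.6%. The difference between the BcorWT replicates (replicate 2 minus replicate 1, log2 CPM) was -1.25 in *Suz12*, -0.90 in *Mtf2*, -0.79 in *Eed*, -0.57 in *Rbbp7* and -0.56 in *Ezh2*, and 0.39 in *Ezh1* and 2.14 in *Phf1*. The 5 members with the lowest GC were the 5 farthest below 0, and *Jarid2* (-0.24), *Phf19* (-0.12) and *Rbbp4* (0.01) lay nearer to it, not in the order of their GC. Across all genes the Pearson correlation of this difference with GC was 0.36 and the median went from -0.61 in the lowest of 20 GC bins to 0.64 in the highest. Genes are not independent replicates and share these libraries, so no p is given. The difference between the BcorΔE9-10 replicates had a correlation of -0.10 with GC.

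**Figure D4:**
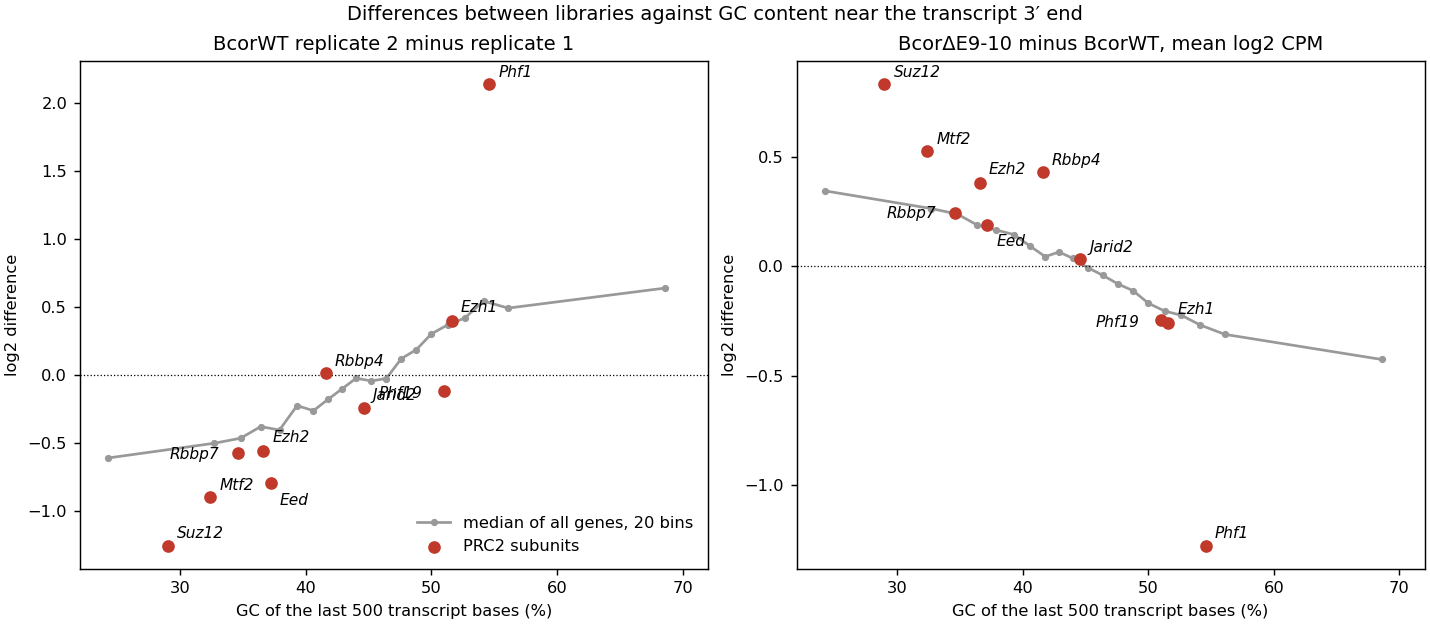
Log2 difference (vertical axes) between the BcorWT replicates (left) and between the genotypes (right) against the GC content of the last 500 transcript bases (horizontal axes, percent), with PRC2 subunits as red points and the medians of all genes in 20 GC bins as a grey line. *Suz12* and *Phf1*, the members with the lowest and the highest GC, lie farther from 0 than the line in both plots, and *Eed*, *Rbbp7*, *Jarid2*, *Ezh1* and *Phf19* lie near the line in the right plot.

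Across all genes the genotype difference also moved with GC (Pearson r -0.31), its median going from 0.34 in the lowest bin to -0.43 in the highest. With an offset for GC in each library, added after the data were examined, the log2 fold changes were 0.46 for *Suz12* (standard error 0.31), 0.34 for *Rbbp4* (0.26), 0.24 for *Mtf2* (0.27), 0.20 for *Ezh2* (0.27) and -1.07 for *Phf1* (0.64). The remaining members lay between -0.08 (*Phf19*) and 0.03 (*Jarid2*), and the median over the members was 0.02 in place of 0.18. Each library's curve was fitted to its departure from the mean of all libraries. The offset therefore also takes out any genotype difference that follows GC. A shrinkage of estimates that follow the trend was built in, and the source of the trend was not tested. With the offset and without BcorWT replicate 2 the estimates were 0.19 (*Suz12*), 0.44 (*Rbbp4*), 0.06 (*Mtf2*), 0.11 (*Ezh2*) and 0.013 (*Phf1*). The remaining members then lay between -0.31 (*Phf19*) and -0.048 (*Ezh1*). With the offset and without BcorWT replicate 1 they were 0.80 (*Suz12*), 0.25 (*Rbbp4*), 0.44 (*Mtf2*), 0.29 (*Ezh2*) and -1.64 (*Phf1*). In that fit the remaining members lay between -0.07 (*Ezh1*) and 0.24 (*Eed*). Over all omissions of a single library with the offset, *Phf1* ranged from -2.01 to 0.013. With the offset and all libraries, 0 members and 497 of 11948 genes had an unadjusted p under 0.05 in edgeR, and the groups did not overlap for 4 members and for 3880 genes. The *Ezh2* and *Ezh1* estimates moved toward each other, from 0.36 and -0.28 to 0.20 and -0.06, a direction set by the trend that the offset takes out. The GC near the annotated end stands for the sequenced stretch only as far as the reads come from that end, which the counts do not show.

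In the lists of other PRC2 subunits, of enzymes and partners around PRC2 and of the cell cycle, 0 genes had an unadjusted p under 0.05 in edgeR. Of the other accessory subunits, 4 of 5 were in the table, 3 above 0 and 1 below, from *Lcorl* at 0.55 to *Lcor* at -0.07 on the log2 scale of fold changes. *Aebp2*, the partner of *Jarid2*, named after its value was seen, was at 0.22. Its groups overlapped, at 35.5 and 37.3 CPM in BcorΔE9-10 and 37.4 and 25.4 CPM in BcorWT, with BcorWT replicate 2 the lowest. The genes of the Kdm6 family, to which demethylases of the PRC2 mark belong, ran from 0.50 for *Uty* to -0.33 for *Kdm6b*. Of these, 2 of 3 were above 0, or 1 of 3 with the GC offset. Both acetyltransferases of the same lysine were above 0, at 0.31 for *Ep300* and 0.23 for *Crebbp*, but their summed levels overlapped, at 122 and 142 CPM in BcorΔE9-10 and 139 and 79.4 CPM in BcorWT, with BcorWT replicate 2 the lowest. All 5 methyltransferases of histone H3 lysine 36, a mark that hinders PRC2, were above 0, up to 0.40 for *Nsd1*, and their median of 0.27 was 0.08 with the GC offset. Their groups overlapped in all 5, and BcorWT replicate 2 again had the lowest summed level (291 CPM, against 374 to 431 CPM in the other libraries). Among the 15 partners of *Rbbp4* and *Rbbp7* in the NuRD, Sin3 and CAF-1 complexes, 3 were above 0 and 12 below, from *Gatad2b* at 0.31 to *Mbd3* at -0.78. With the GC offset 6 of these 15 were above 0, from *Chd3* at 0.38 to *Mta3* at -0.84, and *Mbd3* was at -0.31. The E2F and pocket protein genes had a median of 0.08 (11 genes, 8 above 0), from *Rbl1* at 0.74 to *E2f2* at -0.50. Their median was 0.20 with the GC offset (6 above 0), from *Rbl1* at 0.43 to *E2f2* at -0.23. The 20 genes of S phase and mitosis had a median of 0.08 (11 above 0), from *Bub1* at 0.85 to *Plk1* at -0.92. This median turned to -0.064 with the GC offset (9 above 0), from *Bub1* at 0.65 to *Mcm2* at -0.71.

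Textbook target loci of PRC2 were looked at beside its subunits. Of 14 such genes, 4 *Hoxa* genes were in the table, and all 4 had an unadjusted p under 0.05 (edgeR), with log2 fold changes from 1.39 to 2.19 and adjusted p from 0.419 to 0.945. They were listed with earlier results of these libraries known, so this is not independent evidence, and the transcripts of the cluster overlap each other. *Hoxa10*, a homeobox factor of early progenitors, had 44 and 54 counts in BcorΔE9-10 and 13 and 5 counts in BcorWT (log2 fold change 1.90, standard error 0.71). Of the 8 myeloid progenitor genes, 3 were above 0 and 5 below, and 0 had an unadjusted p under 0.05 (edgeR). The groups did not overlap for 1 of them higher in BcorΔE9-10 (16.8% of all genes) and 2 lower (17.1%). Their summed levels were 11046 and 8309 CPM against 11186.5 and 11180.5 CPM. Marker genes of some other cells also lay apart between the genotypes, with 0 past the adjusted threshold in edgeR. In the late neutrophil, B cell, and T and NK cell lists the groups overlapped for every gene in the table. Above 0 were 2 of 6, 1 of 3 and 0 of 1 of their genes, and 0 had an unadjusted p under 0.05 (edgeR). All 5 eosinophil, basophil and mast cell genes had groups that did not overlap and were lower in BcorΔE9-10 (17.1% of all genes). Of them 4 had an unadjusted p under 0.05 in edgeR, and the summed level was 253 and 216 CPM against 533 and 664 CPM. The 5 erythroid genes in the table, of 8 listed, had groups that did not overlap and were higher in BcorΔE9-10 (16.8% of all genes). Their summed level was 77.4 and 72.5 CPM against 19.6 and 46.7 CPM. An unadjusted p under 0.05 was reached by 2 of them, or by 5 with the GC offset (edgeR). *Klf1* had only 1 and 4 counts in BcorWT, and the rest are globin genes, whose paired copies are not independent of each other. The 6 monocyte and dendritic cell genes had log2 fold changes below 0 with 0 at an unadjusted p under 0.05 (edgeR). The groups of 4 did not overlap and were lower in BcorΔE9-10 (17.1% of all genes). Their summed levels were 772 and 769 CPM against 937 and 1797 CPM, with BcorWT replicate 2 far above the others. The 3 megakaryocyte genes in the table, of 5 listed, had log2 fold changes below 0, and 1 of them, *Pf4*, had an unadjusted p under 0.05. Their summed levels, 106 and 138 CPM against 102 and 265 CPM, overlapped, with BcorWT replicate 1 the lowest and replicate 2 the highest, and with the GC offset 1 of the 3 was above 0. The 4 stem cell and lymphoid-primed genes in the table, of 6 listed, had log2 fold changes below 0 and none at that threshold, with summed levels of 26.4 and 24.8 CPM against 38.5 and 22.8 CPM. The part of such cells in the differences of the PRC2 subunits was not tested.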

How the data were processed

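Gene expression was measured by Quant-seq in sorted KL cells of donor origin, 2 BcorΔE9-10 and 2 BcorWT libraries. Per the labels and the study's methods, the authors trimmed reads with cutadapt, aligned them to mm10 (GRCm38) with HISAT2 and used featureCounts of Subread for counting. The strand setting and the level above which genes were kept are not given in the sources used here. The deposited table holds counts per gene, not normalized. For BcorΔE9-10 replicate 2 and BcorWT replicate 1 the deposited column was treated as holding expected counts, since *Gm4430* alone (1 gene) ended in a fraction there, and it was rounded.

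All 12067 genes (filterByExpr dropped 0) were fitted with edgeR 4.0.16 (R 4.3.3), using TMM factors, glmQLFit and glmQLFTest with a prior count of 0.125, and p-values were adjusted by Benjamini-Hochberg over all of them. Standard errors were derived as the absolute log2 fold change over the square root of the F statistic. Single-library differences and GC trends were taken from log2 CPM with a prior count of 2, and ratios within a library from counts plus 0.5. As alternatives, limma-voom (limma 3.58.1), DESeq2 1.42.0, its size factors, omission of the filter, a minimum of 10 counts per library, a prior count of 2, scaling without *Gm42418*, the replicate number as a block and the omission of single libraries were tried. A GC offset, a lowess curve over the GC percent of the last 500 transcript bases in each library, was added after the data were seen, with all libraries and with each omitted. The fits were tested on simulated counts.

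Positions and transcripts came from GENCODE M21 (GRCm38) and promoters from RefSeq (GRCm38.p6), in which all 10 members were matched. Copies were sought with blastn 2.17.0 (identity of at least 90% over 200 bases). Processed pseudogenes resembling *Mtf2*, *Rbbp4* and *Rbbp7* were found, and none of them is in the table. All members were described, and the genes with the highest and lowest log2 fold change, or an unadjusted p under 0.05, were eligible for naming in the other lists. Members and lists were chosen with earlier results of these data known. Floors cover counting error only. Figures were drawn with matplotlib 3.10.9.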

Additional observations from a re-analysis of the deposited data

How the results depend on the processing

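The count of members with an adjusted p under 0.05 was 0 in every setting with all 4 libraries and between 0 and 2 with single libraries omitted, the 2 (*Suz12* and *Phf1*) coming without BcorWT replicate 1, where 596 of 12063 genes passed. The count at an unadjusted p under 0.05 was 1 with DESeq2 (506 of all 12067 genes), 1 with the replicate block (464 genes), *Phf1* in both, and between 0 and 4 with single libraries omitted, against 0 as reported. Without BcorWT replicate 1 this p was reached by 3013 of 12063 genes in all, and the members' 4 were *Suz12*, *Phf1*, *Mtf2* and *Ezh2*. The sign of the log2 fold change turned for *Jarid2* (range -0.13 to 0.19; -0.13 without BcorΔE9-10 replicate 1, -0.08 without BcorWT replicate 2), *Eed* (range -0.20 to 0.60; -0.01 without BcorΔE9-10 replicate 2, -0.20 without BcorWT replicate 2) and *Rbbp7* (range -0.044 to 0.53; -0.044 without BcorWT replicate 2). The GC offset and its combination with omissions were chosen after seeing the data. With the offset and a single library omitted, the sign also turned for *Jarid2* (-0.13 without BcorΔE9-10 replicate 1, -0.073 without BcorWT replicate 2). It turned for *Rbbp7* (-0.088 and -0.050 without the same libraries) and *Eed* (-0.12 without BcorΔE9-10 replicate 2, -0.20 without BcorWT replicate 2). The same held for *Phf19* (0.15 without BcorWT replicate 1) and *Phf1* (0.013 without BcorWT replicate 2). In all, 13 of 170 alternative estimates of the members turned, and the others kept their sign. The 170 include omission of the filter, which is the reported fit again because filterByExpr dropped 0 genes. They also include a prior count of 2, which leaves every p as it was, so the share is no measure of stability. The *Ezh2* to *Ezh1* log2 difference lay between 0.17 and 1.12 with single libraries omitted and was 0.65 with the replicate block. Over all genes, 2 had an adjusted p under 0.05 with edgeR, 4 with limma-voom, 14 with the replicate block and 43 with DESeq2. The replicate numbers do not pair the libraries by any label, and the deviations of same-numbered libraries had a correlation of -0.09. Prior count and block do not alter the CPM behind the overlap of groups, and limma-voom and DESeq2 were not used for it. For all members the standard error from counting alone was below that of the fit, and it was highest for *Phf19* (0.29 of 0.54). The causes of these shifts were not tested.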
